A study of Mus musculus with 4 samples.

Results

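Nuclei that carry RNA of Rorb (ENSMUSG00000036192) or Cux2 (ENSMUSG00000042589), a pair of transcription factor genes used to mark the upper layers of the cerebral cortex, were described in single-nucleus RNA sequencing of mouse hippocampus. A nucleus was taken when it held at least 600 UMIs (unique molecular identifiers, each standing for 1 captured transcript) and at most 5% mitochondrial UMIs, and met a gate on marker genes. The gate asked for at least 1 UMI of Rorb or Cux2, for at least 4 UMIs from at least 2 genes over Rorb, Cux2, Pamr1, Prr16, Pdzrn3, Unc5d and Col26a1, and for more of these than of 9 genes of deep-layer, hippocampal and other neurons. It chose 1328 of 47103 nuclei (2.82%), called the gated nuclei here. The groups were 2 libraries of trained mice (Trained 1 and Trained 2) and 2 libraries of untrained mice (Untrained 1 and Untrained 2). Trained mice had learned active place avoidance, in which a mouse on a rotating arena keeps out of a shock sector, and tissue of all groups was taken 3 days after the retention test, with no recall set off by the experimenters. All mice had the genotype ArcCreERT2::eYFPflx, in which a Cre driven by the activity gene Arc switches on eYFP for good in neurons that express Arc while Cre is active, and this tag was not analysed here. The design text gives 2 mice per group, each library was taken as 1 mouse, and p-values speak for these 4 samples alone. In the edgeR tests of genes, a gene's own spread between libraries is pooled with that of all genes. A small p-value can therefore stand beside an order that turns in 1 library.

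The cerebral cortex is built of layers that differ in their cells and connections. Rorb, a nuclear receptor of the ROR family, is a marker of layer 4 neurons, which receive input from the thalamus, and Cux2, a homeobox factor, marks the projection neurons of the upper layers together with its relative Cux1. Cux2 is also expressed in some inhibitory interneurons, and Rorb in parts of the thalamus, so that either gene alone does not define a cortical excitatory cell. Upper-layer neurons are not part of the hippocampus itself, and the cortex lies next to it.

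The libraries differed in depth and size. They held between 23155826 and 39749125 UMIs in all and kept between 6019 nuclei (Trained 1) and 16916 nuclei (Untrained 1), with a median of 736 to 1080 UMIs per kept nucleus. The gated nuclei were spread very unevenly, with 23 in Trained 1 and 88 in Trained 2, against 957 in Untrained 1 and 260 in Untrained 2. Untrained 1 thus gave 72.1% of them. The 23 nuclei of Trained 1 held 24590 UMIs together, so that a single UMI there is worth 40.7 CPM (UMIs of a gene per 1000000 UMIs of the summed nuclei), against 7.72 in Trained 2, 0.766 in Untrained 1 and 2.30 in Untrained 2. Values of low genes in Trained 1 therefore move in large steps. The median gated nucleus held 934 and 1241 UMIs in Trained 1 and 2 and 1211 and 1424 UMIs in Untrained 1 and 2, against 735, 885, 946 and 1075 in the other nuclei of the same libraries. Of 46891 distinct barcodes among kept nuclei, 212 occurred in more than 1 library, and among the gated nuclei 7 did.

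What the gate counted is a description of how the nuclei were chosen and not a finding. Unc5d, a netrin receptor, gave the most UMIs of the gate genes in every library, at 45 and 241 UMIs in Trained 1 and 2 and 1909 and 633 in Untrained 1 and 2. Rorb gave 25 and 54 UMIs in Trained 1 and 2 and 1525 and 302 in Untrained 1 and 2, while Cux2 had 12, 78, 403 and 174. Cux2 thus outnumbered Rorb in Trained 2 and in none of the other libraries. Prr16 and the ubiquitin ligase gene Pdzrn3 gave 8 to 976 and 10 to 763 UMIs, and Pamr1 and Col26a1 were the least counted. The gate was passed at exactly 4 UMIs by 14 and 37 nuclei in Trained 1 and 2 and by 281 and 92 nuclei in Untrained 1 and 2. Just outside it, with 3 UMIs and otherwise the same, were 35, 87, 352 and 113 nuclei. A further 2, 11, 63 and 57 nuclei had enough UMIs but were set aside because the 9 other genes gave as many or more.

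Nuclei with Rorb and no Cux2 UMI (Rorb-only) numbered 14 and 23 in Trained 1 and 2 and 617 and 119 in Untrained 1 and 2. Those with Cux2 and no Rorb UMI (Cux2-only) numbered 6 and 57 in Trained 1 and 2 and 160 and 88 in Untrained 1 and 2. Both genes were seen together in 3, 8, 180 and 53 nuclei. Cux2-only nuclei were thus the larger kind in Trained 2, at 64.8% of its gated nuclei, and the smaller kind in the other libraries, at 26.1% in Trained 1, 16.7% in Untrained 1 and 33.8% in Untrained 2. At about 1000 UMIs per nucleus the absence of a UMI does not show that the gene was silent.

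**Figure D1:**
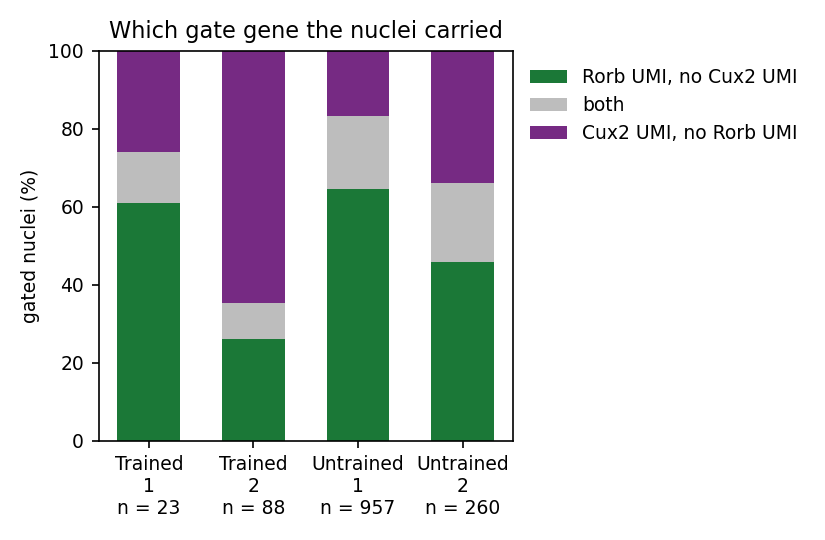
Share of the gated nuclei (%) that carried a Rorb UMI and no Cux2 UMI, both, or a Cux2 UMI and no Rorb UMI, in each library, with the number of gated nuclei under each bar. Cux2-only nuclei make up 64.8% in Trained 2 and 16.7% in Untrained 1.

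UMIs also appear in nuclei that should lack these genes. Of 295 nuclei with at least 10 UMIs over 7 oligodendrocyte markers, 18.6% had a Rorb UMI and 11.9% a Cux2 UMI at a median of 1436 UMIs per nucleus. In all nuclei outside the gate, at a median of 922 UMIs, the shares were 7.62% and 3.99%. The full gate was passed by 20 of the 295 (6.78%), which were 0 and 3 nuclei in Trained 1 and 2 and 8 and 9 nuclei in Untrained 1 and 2. That share was above the 2.82% of all kept nuclei that passed, though the oligodendrocyte-marked nuclei were deeper than the nuclei outside the gate. A single Rorb or Cux2 UMI is therefore at the level of background, and the full gate does not keep such nuclei out. The description below rests on the summed profile, which still holds them.

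The label of upper-layer cortical neurons held in part. Layer 2/3 markers that the gate did not use were highest in the gated nuclei of the untrained libraries, and layer 4 markers were not. Cux1, the relative of Cux2, had 81.3 and 154 CPM in gated nuclei of Trained 1 and 2 and 347 and 255 CPM in those of Untrained 1 and 2, against 96.6, 79.1, 114 and 92.6 CPM in the other nuclei of the same 4 libraries. In Trained 1 it was not above the other nuclei, and its value there rests on 2 UMIs. The 9 markers of layer 2/3 summed to 285 and 486 CPM in gated nuclei of Trained 1 and 2 and 737 and 536 CPM in those of Untrained 1 and 2, against 349, 327, 423 and 347 CPM in the other nuclei. Barcodes of low UMI count had 413, 414, 485 and 405 CPM of them in these 4 libraries, above the gated nuclei in Trained 1 alone. The 6 markers of layer 4 summed to 1017, 1019, 950.4 and 991 CPM in gated nuclei of the same 4 libraries, against 666, 603, 554 and 620 CPM in the other nuclei, and were thus above them in each library. Most of that sum came from Zmat4 and Thsd7a. The narrower layer 4 markers Rspo1, Scnn1a and Endou were at 0 in both trained libraries, and in Untrained 1 they had 18, 3 and 4 UMIs. The 10 cortical glutamatergic markers summed to 3294, 2446, 4908 and 3396 CPM in gated nuclei of the 4 libraries. Other nuclei had 3289, 2943, 3793 and 3135 CPM. Barcodes of low UMI count had 5137, 4862, 5804.5 and 5126 CPM, above the gated nuclei in each library.

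Inhibitory neuron markers were the other large component. Erbb4, the neuregulin receptor of interneurons, had 1423 and 2076 CPM in gated nuclei of Trained 1 and 2 and 395 and 1308 CPM in those of Untrained 1 and 2, against 548, 592, 542 and 594 CPM in the other nuclei. The 10 inhibitory markers summed to 4026 and 5316 CPM in gated nuclei of Trained 1 and 2 and 1346 and 3267 CPM in those of Untrained 1 and 2, against 2276, 2014, 1952 and 2086 CPM in the other nuclei. The gated nuclei were thus above the other nuclei in Trained 1, Trained 2 and Untrained 2, and below them in Untrained 1. Slc32a1, the vesicular GABA transporter, was at 0 in Trained 1, and Vip was at 0 in both trained libraries. At least 1 UMI of Gad1, Gad2, Slc32a1 or Dlx6os1 was found in 26.1% and 47.7% of gated nuclei in Trained 1 and 2 and in 17.4% and 32.7% in Untrained 1 and 2, against 12.8%, 14.6%, 17.8% and 19.6% of the other nuclei. With every nucleus thinned to 600 UMIs these shares were 8.70%, 26.1%, 7.94% and 16.2% of gated nuclei, against 10.3%, 10.0%, 11.7% and 11.5% of the other nuclei. Trained 2 and Untrained 2 stayed above the other nuclei at equal depth, and Trained 1 and Untrained 1 did not.

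**Figure D2:**
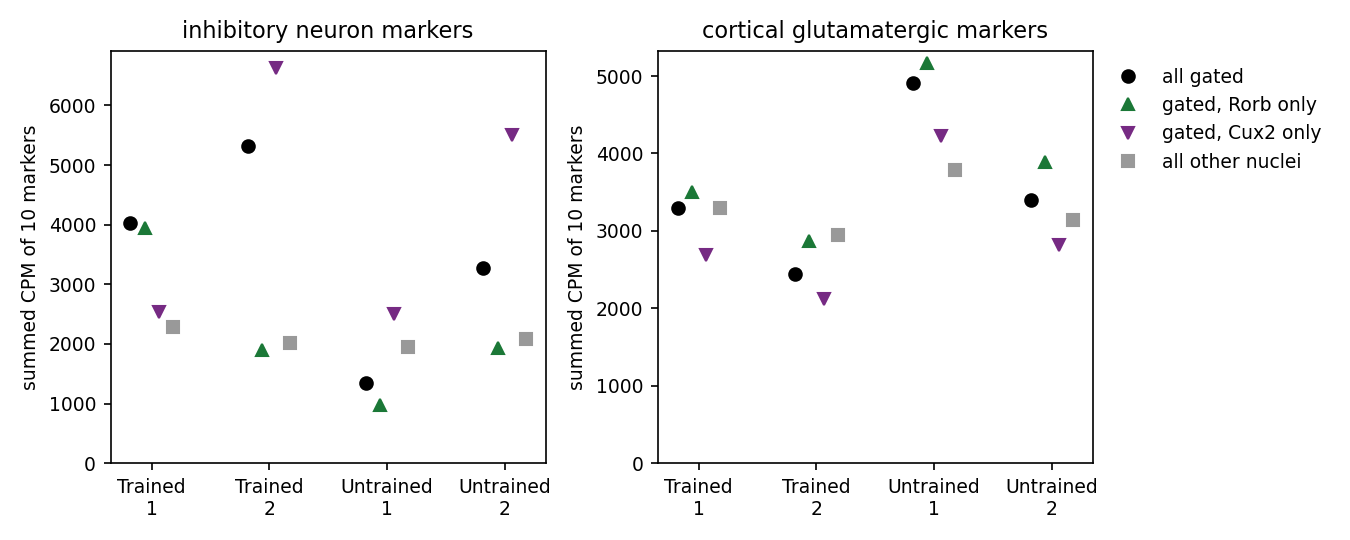
Summed CPM of 10 inhibitory neuron markers (left) and 10 cortical glutamatergic markers (right) in each library, for all gated nuclei, Rorb-only and Cux2-only gated nuclei and all other nuclei. Inhibitory markers are highest in the Cux2-only nuclei of Trained 2 and Untrained 2, and glutamatergic markers in the Rorb-only nuclei of Untrained 1.

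The marker makeup therefore differed between libraries, and each training comparison below compares different mixtures of nuclei. The 8 astrocyte markers summed to 1627 and 1381 CPM in gated nuclei of Trained 1 and 2 and 1209 and 1363 CPM in those of Untrained 1 and 2, against 1384, 1425, 1432 and 1357 CPM in the other nuclei. The 7 oligodendrocyte markers summed to 1586 and 1397 CPM in gated nuclei of Trained 1 and 2 and 895 and 1101 CPM in those of Untrained 1 and 2, against 1240.1, 1231, 1144 and 1179.6 CPM in the other nuclei. In both lists the gated nuclei of Trained 1 stood above the other nuclei and those of Untrained 1 below. The 5 markers of dentate granule cells summed to 244 and 579 CPM in gated nuclei of Trained 1 and 2. In those of Untrained 1 and 2 they summed to 221 and 366 CPM. The other nuclei of the same libraries had 612, 670.4, 479 and 696 CPM, so the gated nuclei were lower in every library. The gate set hippocampal genes against the counted ones, so these lower values were favoured by the choice of nuclei.

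The first question was whether the gated nuclei made up the same share of nuclei after training. They were 0.382% (exact 95% binomial interval 0.242% to 0.573%) of nuclei in Trained 1 and 0.721% (0.579% to 0.888%) in Trained 2, against 5.66% (5.31% to 6.02%) in Untrained 1 and 2.17% (1.92% to 2.45%) in Untrained 2. Both trained libraries were below both untrained ones. The mean was 0.552% ± 0.240 in trained libraries and 3.92% ± 2.46 in untrained libraries (SD, n = 2 each), a difference of -3.36 percentage points. With 2 libraries against 2, the exact two-sided permutation test gave p = 0.333, the smallest it can give. Intervals cover counting error only.

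The gate asks for a number of UMIs, and nuclei of the trained libraries were shallower. With each nucleus thinned to 600 UMIs, 5 and 15 nuclei passed in Trained 1 and 2, against 318 and 54 in Untrained 1 and 2. The shares were then 0.0831% and 0.123% in Trained 1 and 2, against 1.88% and 0.451% in Untrained 1 and 2, in the same order of groups. Thinned to 1000 UMIs, with shallower nuclei left out, they were 0.506% and 0.877% in the trained libraries (791 and 4560 nuclei), against 5.32% and 1.36% in the untrained libraries (7728 and 7008 nuclei). Untrained 1 exceeded Untrained 2 by more than the trained libraries differed from Untrained 2 in percentage points. Kept nuclei had a median of 736 and 887 UMIs in Trained 1 and 2 and 957.5 and 1080 UMIs in Untrained 1 and 2. The share rose in that order from Trained 1 to Untrained 1, and Untrained 2, the deepest, was below Untrained 1. The part of depth in the share was not tested beyond the thinning. The marker makeup of the gated nuclei differed between libraries too, and its part in the share was not tested.

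**Figure D3:**
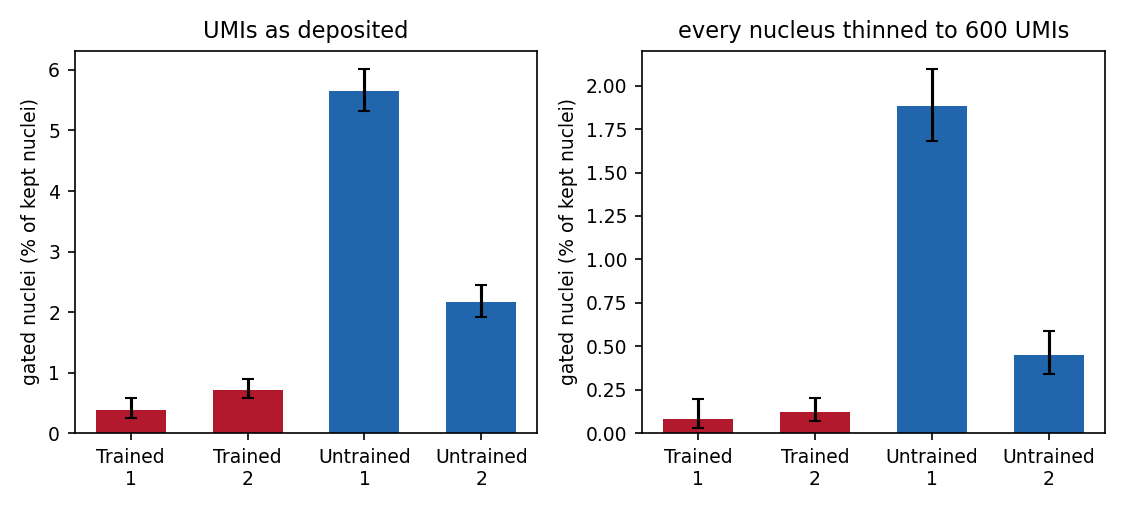
Gated nuclei as a share of kept nuclei (%) in each library, with the UMIs as deposited (left) and with each nucleus thinned to 600 UMIs (right). Bars are single libraries and whiskers exact 95% binomial intervals for counting error; Untrained 1 stands highest at 5.66% and 1.88%.

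The Rorb-only and Cux2-only nuclei differed among themselves. Rorb-only nuclei had more RNA of Nrg1, Hs3st4, Ptprd and Rora, and Cux2-only nuclei had more of Erbb4, Grip1, Kcnmb2, Nxph1 and Zfp536, of which Erbb4 and Nxph1 are on the list of inhibitory markers. By edgeR's quasi-likelihood test on sums per library, with the library as a block, 94 of 2306 genes tested (4.08%) passed an adjusted p of 0.05, 34 of them (1.47%) higher and 60 (2.6%) lower in Rorb-only nuclei. Rorb and Cux2 made the split and were left out of the test.

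Among genes higher in Rorb-only nuclei, Nrg1 (neuregulin 1, the ligand of Erbb4) had 1861, 2275, 3734 and 3107 CPM in the Rorb-only nuclei of Trained 1, Trained 2, Untrained 1 and Untrained 2, against 1346, 1030.3, 1936 and 1281 CPM in the Cux2-only nuclei of the same libraries. It was higher in each library, by 1.07 ± 0.17 on the log2 scale (SE; edgeR, adjusted p = 6.2e-08). Ptprd, a receptor phosphatase that organises synapses, had 4095, 4143, 10911 and 7762 CPM in Rorb-only nuclei, against 2542, 2639, 5306 and 3962 CPM in Cux2-only nuclei, also higher in each library (log2 change 0.90 ± 0.16, edgeR, adjusted p = 1.8e-06). Hs3st4, a heparan sulfate sulfotransferase best known from deep layers, had 298, 542, 483 and 593 CPM in Rorb-only nuclei, against 449, 88.0, 245 and 167 CPM in Cux2-only nuclei. It was higher in Rorb-only nuclei in all libraries but Trained 1, where the values rest on 4 and 3 UMIs (log2 change 1.41 ± 0.23, edgeR, adjusted p = 6.2e-08). The potassium channel gene Kcnh5, the glutamate transporter gene Slc1a2, the receptor genes Grm3 and Rora, and Lhfp were the others named by rank, with log2 changes of 0.82 to 1.56; without Untrained 1 the calls of Lhfp (1.36) and Grm3 (0.97) were lost, and without Untrained 2 that of Grm3 (1.07). Rora, a relative of Rorb, had 1638, 2112, 2446 and 2575 CPM in Rorb-only nuclei, against 2692, 967, 1239 and 1434 CPM in Cux2-only nuclei, with the order turned in Trained 1. Its call (edgeR, adjusted p = 0.00015) was lost without Untrained 1 (log2 change 0.69) and without Untrained 2 (0.74).

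Among genes higher in Cux2-only nuclei, Erbb4 had 1340.1, 839, 259 and 383 CPM in Rorb-only nuclei, against 748, 2839.6, 917 and 2922 CPM in Cux2-only nuclei. It was lower in Rorb-only nuclei in all libraries but Trained 1 (log2 change -1.96 ± 0.19, edgeR, adjusted p = 8.3e-22). Kcnmb2, a subunit of calcium-activated potassium channels, had 149, 108, 37.2 and 81.8 CPM in Rorb-only nuclei, against 150, 691, 249 and 514 CPM in Cux2-only nuclei (log2 change -2.63 ± 0.27, edgeR, adjusted p = 6.1e-20). Nxph1, a neurexophilin of interneurons, had 298, 433, 95.5 and 194 CPM in Rorb-only nuclei, against 598, 1395, 399 and 1040.5 CPM in Cux2-only nuclei, and so was lower in Rorb-only nuclei in each library (log2 change -2.07 ± 0.21, edgeR, adjusted p = 2.9e-19). Grip1, a scaffold of AMPA receptors, and Zfp536, a zinc finger repressor, were lower too, with log2 changes of -1.88 and -1.85, but not in Trained 1, where Grip1 had 1117 CPM in Rorb-only nuclei, against 897 CPM in Cux2-only nuclei, and Zfp536 had 223 CPM, against 149.5 CPM. The Erbb4 call was lost with DESeq2 (log2 change -1.56). An alternative added after the data were seen left out the nuclei that held a UMI of Gad1, Gad2, Slc32a1 or Dlx6os1. There 31 of 1030 genes tested passed between Rorb-only and Cux2-only nuclei, against 94 of 2306 in the main result.

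**Figure D4:**
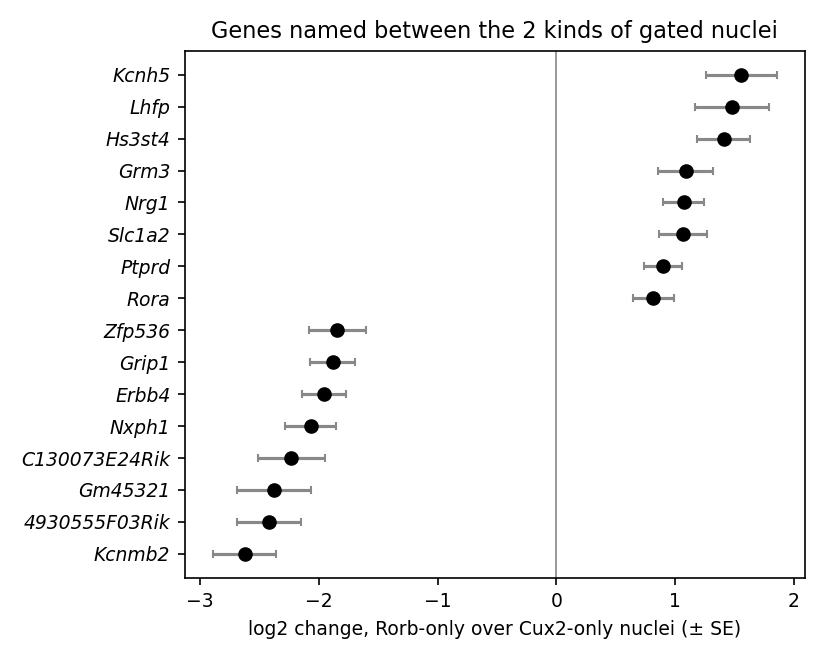
Log2 change of the Rorb-only over the Cux2-only gated nuclei with its SE, for the 8 genes with the smallest p in each direction (edgeR, sums per library, library as block). Values above 0 are higher in Rorb-only nuclei; Kcnmb2 lies lowest at -2.63 and Kcnh5 highest at 1.56.

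By group, 3 of 5 tested inhibitory markers (Erbb4, Nxph1, Adarb2) were lower in Rorb-only nuclei and none was higher, with a median log2 change of -0.77 over the list, against 0.03 over all genes tested. Of 5 tested cortical glutamatergic markers, Arpp21 passed as higher and none as lower, with a median of 0.24. Of 4 tested astrocyte markers, Slc1a2 and Gpc5 were higher in Rorb-only nuclei and none was lower, with a median of 0.79. The 8 astrocyte markers summed to 2233, 2843, 1261 and 1400.1 CPM in Rorb-only nuclei, against 1047, 817, 864 and 767 CPM in Cux2-only nuclei, higher in each library, and their part in the other differences was not tested. Among 12 tested ionotropic glutamate receptor genes, none was higher and Gria1 and Grik1 were lower; the AMPA receptor gene Gria1 had 1414, 1462, 849 and 1170.2 CPM in Rorb-only nuclei, against 1645, 4159, 1577 and 3102 CPM in Cux2-only nuclei (log2 change -1.15 ± 0.17, edgeR, adjusted p = 3.9e-09). Of 14 tested cadherin genes, Cdh13 and Cdh9 were lower in Rorb-only nuclei and none was higher. Several of these calls were lost when a single library was left out. Gpc5 stood at 0.88 without Trained 1, 0.65 without Trained 2 and 0.99 without Untrained 2. Adarb2 stood at -0.90 without Trained 1, -0.37 without Trained 2 and -0.36 without Untrained 1, and Grik1 at -0.88, -0.42 and -0.47 without Trained 1, Trained 2 and Untrained 2. Arpp21 stood at 0.67 to 0.74 without Trained 2, Untrained 1 or Untrained 2, Cdh13 at -1.27 without Untrained 2 and Cdh9 at -1.72 without Untrained 1.

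Against all other nuclei of the same libraries, 489 of 13389 genes tested (3.65%) passed, 298 of them (2.23%) higher and 191 (1.43%) lower in the gated nuclei (edgeR, library as block, gate genes left out). A gene that accompanies the gate genes in a nucleus is chosen along with them, so these calls describe what the gate collected. The largest fold belonged to the noncoding transcript 4930467D21Rik, with 40.7, 7.72, 140.2 and 122 CPM in gated nuclei, against 22.6, 18.0, 22.2 and 22.1 CPM in the other nuclei, below them in Trained 2 (log2 change 2.41 ± 0.18). Higher were the layer 2/3 markers Cux1 and Rasgrf2 and the inhibitory markers Dlx6os1, Nxph1 and Erbb4, as were Myo16, Cobl, Fhod3, Pcdh15 and Cdh6. Lower were Nrp1, Cntnap5c, Maml2 and Htr4, among others.

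Cux1, whose values are given above, had a log2 change of 1.41 ± 0.16 (edgeR, adjusted p = 3.6e-16). Efna5, an ephrin ligand that guides axons, had 122, 208, 521 and 469 CPM in gated nuclei, against 154, 107, 191 and 143 CPM in the other nuclei. It was higher in every library but Trained 1 (log2 change 1.36 ± 0.16, edgeR, adjusted p = 4.0e-14). Myo16, an unconventional myosin of neurons, had 81.3, 201, 231 and 166 CPM in gated nuclei, against 57.0, 65.1, 66.9 and 57.2 CPM in the other nuclei, higher in each library (log2 change 1.67 ± 0.15, edgeR, adjusted p = 1.2e-23). Pparg, a lipid-sensing nuclear receptor, had 40.7, 61.7, 83.5 and 78.2 CPM in gated nuclei, against 19.1, 21.3, 25.5 and 19.3 CPM in the other nuclei (log2 change 1.82 ± 0.20, edgeR, adjusted p = 7.9e-17). Pcdh15, a protocadherin, had 366, 687, 820 and 589 CPM in gated nuclei, against 201, 321, 281 and 279 CPM in the other nuclei (log2 change 1.21 ± 0.17, edgeR, adjusted p = 2.6e-10). Each of the last 3 was higher in all 4 libraries, though in the gated nuclei of Trained 1 the value of Pparg is 1 UMI and that of Myo16 2 UMIs.

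The group called higher also held Cobl, an actin nucleator, Fhod3, a formin, Gpc6, a glypican, and Dcx, the microtubule protein of migrating neurons, at log2 changes of 1.32 to 1.53. Fhod3 had 203, 216, 252 and 195 CPM in gated nuclei, against 68.7, 60.3, 96.9 and 73.9 CPM in the other nuclei. Gpc6 had 651, 486, 320 and 336 CPM in gated nuclei, against 120, 129, 162 and 145 CPM in the other nuclei. Both were higher in each library. Kcnh5 had 81.3, 61.7, 342 and 122 CPM in gated nuclei, against 67.9, 52.8, 77.2 and 56.8 CPM in the other nuclei; without Untrained 1 its call was lost (log2 change 0.86, against 1.59 ± 0.16 with all libraries).

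Erbb4 and Nxph1 were called higher (log2 changes 0.85 ± 0.18 and 1.02 ± 0.16; edgeR, adjusted p = 0.00015 and 3.2e-08), but in Untrained 1 both were below the other nuclei. Nxph1 had 569, 980, 166 and 524 CPM in gated nuclei, against 212, 212, 209.9 and 215 CPM in the other nuclei. The Dlx6os1 call (log2 change 1.36 ± 0.21) was lost without Untrained 2 (1.05). The Erbb4 call was lost without Trained 2 (log2 change 0.50) and without Untrained 2 (0.72). With members holding an inhibitory UMI left out, Erbb4 stood at 0.01 and Nxph1 at 0.34, and neither passed.

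The kainate receptor gene Grik1 and the AMPA receptor gene Gria4 were the 2 of 16 tested ionotropic glutamate receptor genes that passed as higher, and none passed as lower. Gria4 had 1098, 1142, 861 and 927 CPM in gated nuclei, against 489, 411, 455 and 446 CPM in the other nuclei, higher in each library (log2 change 1.08 ± 0.17, edgeR, adjusted p = 4.8e-08). Among 19 cadherins and protocadherins tested, Cdh6, Pcdh15, Cdh12, Cdh20 and Pcdh7 were higher and Cdh9 and Pcdh17 lower, with a median log2 change of 0.10, against -0.03 over all genes. Without Untrained 1 the calls of Cdh6 (0.88) and Cdh12 (0.53) were lost, and without Untrained 2 that of Cdh12 (0.60). Of 10 tested receptors of the ROR, retinoid and thyroid hormone families, Rora was higher and Thra lower. Rora had 1830.0, 1489, 2097 and 2143 CPM in gated nuclei, against 1134, 994, 1032 and 1083 CPM in the other nuclei (log2 change 0.77 ± 0.19, edgeR, adjusted p = 0.00275), and its call was lost without Untrained 1 and without Untrained 2 (0.64 in both). The Thra call was lost under most alternatives, at -0.50 without Trained 2, -0.73 without Untrained 1 and -0.59 without Untrained 2. Of the layer lists, 2 of 9 tested layer 2/3 markers (Cux1, Rasgrf2) and 2 of 3 tested layer 4 markers (Whrn, Zmat4) were higher and none was lower, while 3 of 6 tested layer 6 markers (Tle4, Syt6, Hs3st4) were lower and none higher. Of 7 tested layer 5 markers, Il1rapl2 and Deptor were higher and Bcl11b and Parm1 lower, so that this list had calls in both directions; those of Il1rapl2 (0.72), Bcl11b (-0.51) and Parm1 (-0.82) were lost without Untrained 1, also without Untrained 2 (0.68, -0.66 and -1.01), and that of Parm1 without Trained 2 (-0.67). Without Untrained 1 the calls of Rasgrf2 (log2 change 0.47), Whrn (1.45), Tle4 (-0.61) and Syt6 (-0.999) were lost. Without Untrained 2 those of Rasgrf2 (0.61), Zmat4 (0.86), Tle4 (-0.58), Syt6 (-1.75) and Hs3st4 (-0.75) were, and without Trained 2 those of Syt6 (-1.30) and Hs3st4 (-0.36).

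Among genes lower in gated nuclei, Nrp1, a semaphorin receptor, had 81.3, 162, 61.3 and 129 CPM in gated nuclei, against 264, 317, 177 and 270.3 CPM in the other nuclei (log2 change -1.24 ± 0.18, edgeR, adjusted p = 2.7e-09). Cntnap5c had 81.3, 201, 52.8 and 138 CPM in gated nuclei, against 306, 313, 197 and 236 CPM in the other nuclei (log2 change -1.21 ± 0.18, edgeR, adjusted p = 7.0e-09). Both were lower in all 4 libraries. Maml2, a Notch coactivator listed as a granule cell marker, had 122, 239, 101 and 175 CPM in gated nuclei, against 259, 351, 248 and 371 CPM in the other nuclei (log2 change -1.04 ± 0.17, edgeR, adjusted p = 6.6e-07). The serotonin receptor gene Htr4 was lower too (log2 change -1.28), and its call was lost without Untrained 1 (-0.99). Ror1, Chst9, Gng12, Ndst4 and Pkp2 were also among the named genes, with log2 changes of -1.51 to -1.16; the call of Gng12 was lost without Untrained 2 (-1.06).

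Set against hippocampal principal nuclei (1910 nuclei chosen by at least 4 UMIs from at least 2 genes over Grik4, Trps1, Man1a, Prox1 and Glis3), 1057 of 8679 genes tested (12.2%) passed, 485 (5.59%) higher and 572 (6.59%) lower in the gated nuclei by edgeR. Efna5, Pcdh15, Kcnmb2, Pld5 and Dlx6os1 were higher, by 2.41 to 2.92. Of 8 tested markers of inhibitory neurons 6 were higher and none was lower, and among cortical glutamatergic markers Mef2c was higher while Neurod6, Slc17a7, Neurod2 and Camk2a were lower. Mef2c, an activity-regulated transcription factor, had 407, 540.1, 1185 and 738 CPM in gated nuclei, against 333, 174, 340 and 220 CPM in hippocampal principal nuclei, higher in each library (log2 change 1.53 ± 0.15, edgeR, adjusted p = 1.9e-21). Of the CA3 and granule cell markers, Cpne4, Nectin3, Dkk3, Maml2 and Dock10 were lower. So were Ccbe1, Rerg, Il16 and Tspan18, at -2.47 to -3.35 on the log2 scale for Tspan18 and Il16. The gate had set the genes of this class against the counted ones, which favoured such lower values. All 4 tested CA1 markers had a log2 change above 0, with a median of 0.46, and Mpped1 passed as higher. These summed to 139, 103, 100 and 95.5 CPM in hippocampal principal nuclei of the same libraries. All nuclei outside the gate had 175, 172, 189 and 186 CPM, so CA1 markers were low in the class called hippocampal principal nuclei. Ccbe1 had 40.7, 38.6, 31.4 and 36.8 CPM in gated nuclei, against 229, 196, 211 and 249 CPM in hippocampal principal nuclei (log2 change -2.74 ± 0.21, edgeR, adjusted p = 1.7e-36).

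Synaptic receptor genes separated the gated nuclei from hippocampal principal nuclei in both directions. Among ionotropic glutamate receptor genes, Grik1, Gria4 and Grin3a were higher, and Gria1, Gria2 and Grin2b were lower. Gria4 had 257, 268, 286 and 321 CPM in hippocampal principal nuclei, below the gated nuclei in each library (log2 change 1.67 ± 0.15, edgeR, adjusted p = 1.7e-27). Among GABA-A receptor genes, Gabrg3 had 854, 826, 421 and 701 CPM in gated nuclei, against 257, 229, 257 and 266 CPM in hippocampal principal nuclei (log2 change 1.25 ± 0.15, edgeR, adjusted p = 2.0e-15), while Gabra2, Gabra5 and Gabrb1 were lower. Among 9 tested immediate early genes, Homer1, Arc, Egr1 and Egr3 were higher and Nr4a3 and Bdnf lower, and the Homer1 call was lost without Untrained 2 (0.42). Arc had 40.7, 38.6, 52.1 and 36.8 CPM in gated nuclei, against 13.9, 21.8, 16.3 and 28.0 CPM in hippocampal principal nuclei (log2 change 0.99 ± 0.29, edgeR, adjusted p = 0.0064). In the gated nuclei of Trained 1 this is 1 UMI, and the call was lost without Untrained 1 (0.49).

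Set against deep-layer nuclei (694 nuclei chosen by at least 1 UMI of Foxp2 and at least 4 UMIs from at least 2 genes over Foxp2, Hs3st4, Tle4 and Rprm), 381 of 4409 genes tested (8.64%) passed, 225 (5.1%) higher and 156 (3.54%) lower in the gated nuclei by edgeR. The classes were chosen by opposed genes, so genes that accompany those were chosen along with them. The gate genes and Hs3st4, Tle4 and Rprm were left out of this test. Cux1 had 0, 81.7, 57.0 and 91.4 CPM in deep-layer nuclei, below the gated nuclei in each library (log2 change 1.97 ± 0.23, edgeR, adjusted p = 3.9e-08). The largest folds among the higher genes belonged to Kcnmb2 and Pld5 (log2 changes 3.75 ± 0.31 and 3.09 ± 0.43). Of 6 tested inhibitory markers 5 were higher (Erbb4, Nxph1, Adarb2, Gad1 and Gad2) and none was lower. Erbb4 had 591, 155, 141 and 300.3 CPM in deep-layer nuclei, below the gated nuclei in each library (log2 change 2.20 ± 0.21, edgeR, adjusted p = 6.5e-10). Of 4 tested thalamus markers, Rora, Ntng1 and Plekhg1 were higher and none was lower, and the Plekhg1 call was lost without Trained 2 (0.70) and without Untrained 2 (0.69). Rasgrf2, Zmat4 and Thsd7a were higher too, so that 4 of the 5 layer 2/3 and layer 4 markers tested were higher, and Calb1 did not pass (log2 change 0.14, edgeR, adjusted p = 0.894). Myo16 had 59.1, 24.5, 25.3 and 32.6 CPM in deep-layer nuclei (log2 change 2.83 ± 0.25, edgeR, adjusted p = 2.8e-10). Lower in the gated nuclei was Cdh18, a cadherin, with 122, 370.4, 209.8 and 294 CPM in gated nuclei, against 828, 1339, 1615 and 1495 CPM in deep-layer nuclei (log2 change -2.47 ± 0.17, edgeR, adjusted p = 5.3e-13). Sdk2, a synaptic adhesion gene, Grik3, a kainate receptor gene, Grm8, a metabotropic glutamate receptor gene, and Thsd7b had log2 changes of -2.50, -2.18, -1.97 and -2.17. Of 18 tested potassium channel genes, 8 were higher, led by Kcnc2 and Kcnb2, and Dpp10 and Kcna1 were lower; Dpp10 had 1667, 1844, 5239 and 3033 CPM in gated nuclei, against 3547, 7326, 9272 and 8536 CPM in deep-layer nuclei (log2 change -1.35 ± 0.15, edgeR, adjusted p = 3.35e-08).

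Within the gated nuclei, no gene passed between trained and untrained libraries: 0 of 5741 tested (0%) had an adjusted p under 0.05 by edgeR, 405 had an unadjusted p under 0.05, and DESeq2 called 0 (89 at an unadjusted p under 0.05). Without Untrained 2, 72 genes passed, and without Trained 2, 1 did. Both trained libraries lay above both untrained ones in 1183 genes (20.6% of those tested) and below them in 1147 (20%). The 6 genes with the smallest unadjusted p in each direction, each at an adjusted p of 0.35 by edgeR, are given by value. Predicted, ribosomal protein, mitochondrial and sex-linked marker genes were left out of this choice, which did not ask that the groups be apart. Ptprd had 3497 and 3279 CPM in Trained 1 and 2, against 9399 and 6302 CPM in Untrained 1 and 2 (log2 change -1.32 ± 0.29). Car10, a carbonic anhydrase relative that binds neurexins, had 366 and 355 CPM in Trained 1 and 2, against 1194 and 749.6 CPM in Untrained 1 and 2 (log2 change -1.51 ± 0.32). Both were lower in the trained libraries, as the choice of genes fixed. Efna5, Dpp10 and Kcnh7, a potassium channel gene, had log2 changes of -1.45, -1.31 and -1.14, and Timm8b, a mitochondrial import gene, had 0 and 2 UMIs in Trained 1 and 2, against 170 and 44 UMIs in Untrained 1 and 2.

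On the other side stood Zbtb20, a transcription factor of hippocampal neurons, with 2237 and 1327 CPM in Trained 1 and 2, against 521 and 811.6 CPM in Untrained 1 and 2 (log2 change 1.25 ± 0.29). Barcodes of low UMI count were summed too, and whether they held free RNA or shallow nuclei was not tested. They had 1205 and 953 CPM of Zbtb20 in Trained 1 and 2. In Untrained 1 and 2 they had 549.6 and 799 CPM, in the same order of libraries. Neto1, an auxiliary subunit of kainate receptors, had 529 and 432 CPM in Trained 1 and 2, against 205 and 179 CPM in Untrained 1 and 2 (log2 change 1.18 ± 0.29). Htr4 had 81.3 and 123 CPM in Trained 1 and 2, against 27.6 and 32.2 CPM in Untrained 1 and 2 (log2 change 1.93 ± 0.46). Snx8, Zfp169 and Pard3b were the others named, and rest on 1 to 10 UMIs in the trained libraries. Ttr, the thyroxine carrier made in choroid plexus, had 691 and 664 CPM in Trained 1 and 2, against 274 and 370.2 CPM in Untrained 1 and 2 (log2 change 1.003 ± 0.28, edgeR, adjusted p = 0.46), beside 3381 and 4328 CPM in low-UMI barcodes of Trained 1 and 2 and 1009 and 1675 CPM in those of Untrained 1 and 2. Of the genes that earlier work on these data had named in other classes, Rnf121, Lrrtm4, Tafa1, Cmss1, Gapdh and Fth1 had log2 changes of -1.27 to 0.32 and edgeR adjusted p from 0.485 to 0.927.

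**Figure D5:**
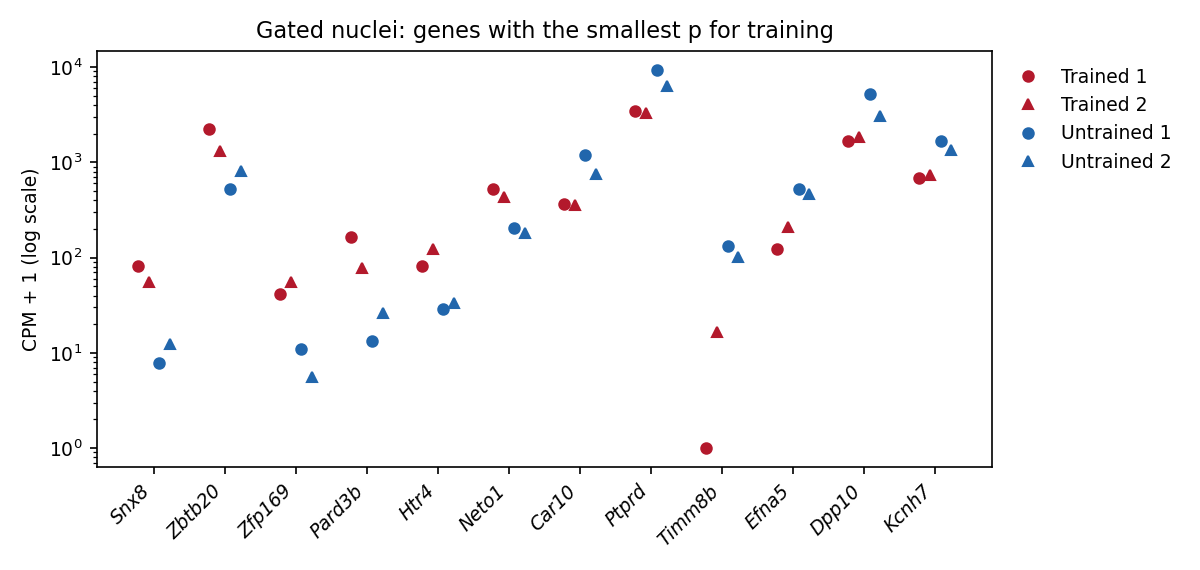
CPM plus 1 (log scale) in the gated nuclei of each library for the 6 genes with the smallest p in each direction between trained and untrained libraries. The 12 were chosen by unadjusted p, with predicted, ribosomal protein, mitochondrial, sex-linked and gate genes left out, and none passed (edgeR, adjusted p = 0.35).

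Genes of memory and activity did not pass either. Arc had 40.7 and 38.6 CPM in Trained 1 and 2, against 52.1 and 36.8 CPM in Untrained 1 and 2, and the groups overlapped (log2 change -0.31 ± 0.61, edgeR, adjusted p = 0.96). Homer1, Camk2a, Gria1, Grin2b, Prkcz, Prkci and Wwc1 had log2 changes between -1.26 and 0.72 and edgeR adjusted p from 0.57 to 1. Bdnf, Fos, Npas4 and Nr4a3 had too few UMIs to be tested. Of 7 inhibitory markers tested, 6 had a log2 change above 0, with a median of 1.05, against -0.05 over all genes, and none passed. All 8 tested cortical glutamatergic markers had a log2 change below 0, with a median of -0.45, and none passed. These values move with the makeup of the gated nuclei given above, and the part of makeup in them was not tested. For 78 tested genes of cytosolic ribosomal proteins the median log2 change was -0.61, with 76 below 0, and for 78 tested genes of oxidative phosphorylation it was -0.54, with 67 below 0; in both lists none passed.

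The effect of training in the gated nuclei was set against that in hippocampal principal nuclei of the same libraries, and 13 of 10069 genes (0.129%) passed by edgeR, 8 of them (0.0795%) with a more positive and 5 (0.0497%) with a more negative effect in the gated nuclei. Car10 had 347 and 345 CPM in hippocampal principal nuclei of Trained 1 and 2, against 363 and 358 CPM in those of Untrained 1 and 2, so that the difference between groups lay in the gated nuclei (difference of log2 changes -1.48 ± 0.32, edgeR, adjusted p = 0.0094). Ptprd had 1644 and 1591 CPM in hippocampal principal nuclei of Trained 1 and 2, against 1794 and 1732 CPM in those of Untrained 1 and 2 (difference -1.26 ± 0.28, edgeR, adjusted p = 0.0094). Adarb2, an RNA-binding protein gene of interneurons, had 1505 and 1651 CPM in gated nuclei of Trained 1 and 2, against 458 and 1019 CPM in those of Untrained 1 and 2, and 520.2 and 560.2 CPM in hippocampal principal nuclei of Trained 1 and 2, against 585 and 662 CPM in those of Untrained 1 and 2 (difference 1.25 ± 0.28, edgeR, adjusted p = 0.0094). Of the 13 genes, 10 were also tested between Rorb-only and Cux2-only nuclei, and C130073E24Rik, Gm45321, 4930555F03Rik, Adarb2, Ptprd, Zfp536 and A330015K06Rik passed there, so the makeup of the gated nuclei moves with these values; its part was not tested. Without Untrained 1 none of the 13 passed, and DESeq2 called 0.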

How the data were processed

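Single-nucleus libraries of mouse hippocampus were analysed from the deposited UMI counts per gene and barcode, made by the authors with Cell Ranger, version 7.0.0 per the file headers (the submitters' processing notes name Cell Ranger 8, STAR and build GRCm39). The UMI counts hold 32285 features in 4 libraries and were not normalized. Barcodes with at least 600 UMIs and at most 5% mitochondrial UMIs were kept, and doublets were kept in the main result. Counts were summed per library and class and tested with edgeR's quasi-likelihood test (edgeR 4.0.16, R 4.3.3; filterByExpr, TMM, Benjamini-Hochberg over all genes tested less the 16 gate genes, threshold 0.05). Against deep-layer nuclei, Hs3st4, Tle4 and Rprm were left out as well. The library was a block where a library gave both sums. Training was tested without a replicate block. Shares were compared by an exact permutation test (scipy 1.17.1), with exact Clopper-Pearson intervals. CPM were computed from the summed UMIs. Alternatives were another normalization, DESeq2 1.42.0, other thresholds, thinning, doublet removal (scanpy 1.11.5) and leaving out each library.

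The members and gene lists were chosen with earlier results of these data known. Named genes were, for training, the 6 with the smallest unadjusted p in each direction, since no gene was called, and genes of memory and activity. Predicted, ribosomal protein, mitochondrial and sex-linked marker genes were left out of that ranking. Against all other nuclei they were the 12 with the largest fold in each direction among called genes with at least 50 CPM, against other classes 8, and between Rorb-only and Cux2-only nuclei the 8 with the smallest p. From each list 2 to 4 genes with the smallest p were added. The gate counted nuclei on UMIs of the same libraries. Results for some genes are not reported here.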

Additional observations from a re-analysis of the deposited data

Results flagged for a closer look

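The effect of training differed between the gated nuclei and hippocampal principal nuclei for 13 of 10069 genes by edgeR's interaction test, and these are given by the difference of their log2 changes. It was above 0 for C130073E24Rik (2.04), Gm45321 (2.26), 4930555F03Rik (1.91), Adarb2 (1.25), Zfp536 (1.42), Olfm3 (1.60), A330015K06Rik (1.43) and Gm49127 (3.38). It was below 0 for Car10 (-1.48), Ptprd (-1.26), Kcnq5 (-1.32), 4930467D21Rik (-3.29) and Scube1 (-3.49). None of the 13 passed with DESeq2, without the library block or without Untrained 1.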

How the results depend on the processing

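The difference in share stayed negative in every setting, from -5.11 (without Untrained 2) to -1.62 percentage points (without Untrained 1) when a library was left out. It was smallest with nuclei thinned to 600 UMIs, at -1.06 percentage points (means of 0.103% in trained and 1.17% in untrained libraries). Between trained and untrained libraries, where 0 genes passed, 12 passed with no count filter and 1 with a gate of at least 3 UMIs, and 0 to 72 when a library was left out. Equal replicate numbers share only a number (correlation of deviations 0.0242 over 5756 genes), and with a replicate block 20 genes passed, 12 higher and 8 lower. Against all other nuclei 150 passed with DESeq2, 236 with no library block and 255 with a gate of at least 6 UMIs, and 120 to 631 when a library was left out (136 without Untrained 1, 120 without Untrained 2). Against hippocampal principal nuclei 509 passed with DESeq2, 602 with a gate of at least 6 UMIs and 568 with nuclei matched on UMIs, and 551 to 1008 when a library was left out. Against deep-layer nuclei 196 passed with DESeq2, 182 with no library block and 244 with a gate of at least 6 UMIs, and 156 to 430 when a library was left out. Between Rorb-only and Cux2-only nuclei 29 of 2306 passed with DESeq2 and 34 of 2306 with no library block. With no count filter 59 of 18710 passed. With members holding an inhibitory UMI left out (chosen after seeing the data) 31 of 1030 passed. When a library was left out 20 to 75 passed. A gate of at least 6 UMIs was not run, as it left no nuclei in a class of Trained 1. For the interaction 0 passed with DESeq2, 0 with no library block, 2 at a minimum of 1000 UMIs, 22 and 1 with gates of at least 3 and 6 UMIs, 4 with members holding an inhibitory UMI left out, and 0 to 28 when a library was left out. Dlx6os1 against all other nuclei turned to -10.21 with those members left out, by construction, since it is among the genes that chose them. C130073E24Rik in the interaction ranged from -0.049 (without Trained 2) to 2.56 (without Trained 1). Causes other than that construction were not tested. The 23 gated nuclei of Trained 1 limit every comparison.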
